A study of Rattus norvegicus with 21 samples.

Results

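The genes described here are 435 genes of rat brain cortex whose normalized read counts were lower 48 h than 24 h after the last of a series of hypobaric hypoxia exposures. They were chosen on the cortex libraries of those 2 times from a table of 30560 gene identifiers, of which 23367 had a read in at least 1 library. In each chosen gene the lowest of the 3 libraries at 24 h lay above the highest of the 3 at 48 h. The 24 h mean was at least 100 normalized read counts and at least 1.5 times the 48 h mean, and the medians of cortex and hippocampus lay less than 4-fold apart. The limits on level and tissue left 10266 genes that could have been chosen, so the falling genes made up 4.24% of these. A normalized read count is the number of reads of a gene divided by a factor that brings the libraries to a common scale.

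The animals were male wild-type rats of the strain given as SD, 4 weeks old on arrival and acclimated for 2 weeks. Of 12 rats, 4 stayed at normal oxygen as controls and 8 went through 6 ascents in a low-pressure chamber at 3-day intervals, each with 5 min at a simulated 28000 ft after a stop at 10000 ft. Of the exposed rats 1 died, and brains were taken at 24 h from 4 rats and at 48 h from 3. RNA was extracted from 50 mg of whole tissue, so the libraries mix all cell types of the piece sampled. In such bulk samples fewer cells of a type and less RNA per cell cannot be told apart. The control, 24 h and 48 h groups held 4, 3 and 3 libraries in the cortex and the same numbers in the hippocampus. A further 24 h library, titled as hippocampus but sourced as cortex, was placed in no group.

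As background, low oxygen stabilises the hypoxia-inducible transcription factors, which raise transcription of genes for glycolysis, oxygen delivery and vessel growth. Transcripts induced by a short stimulus decline afterwards at rates set by their own stability, and those of immediate early genes decline soonest. Cortical and hippocampal neurons depend on a steady oxygen supply for oxidative phosphorylation, and the pyramidal cells of the hippocampus are known for their vulnerability to its loss. The table gives Ensembl identifiers without symbols and the reference table used here pairs none of them, so no falling gene could be assigned to these pathways. For the same reason the labelled tissues could not be checked against their defining markers.

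Hippocampus control 1 was the shallowest library, with 4654096 reads assigned to genes and 15134 genes with a read. All others had 11214566 to 19304803 reads and 18502 to 19688 genes. On a scale from 0 for a typical cortex library to 1 for a typical hippocampus library, 8 of the 10 cortex libraries lay between -0.10 and 0.11. Cortex control 3 lay at 0.41 and cortex 24 h replicate 3 at 0.26. In the hippocampus, control 2 lay at 0.30 and 24 h replicate 2 at 0.46, and the other 8 lay between 0.84 and 1.24. Some results are given below also without 1 of these 5 libraries or without all 5.

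The cortex difference chose the genes, and its size is given without a test. The ratio of the 24 h mean to the 48 h mean had a median of 1.72, with quartiles of 1.59 and 2.04 and a highest value of 31.9. It was under 2 in 318 of the 435 genes, between 2 and 3 in 100, and 3 or more in 17. The gap between the nearest libraries was smaller, with a median ratio of 1.21 between the lowest library at 24 h and the highest at 48 h. Across the 10266 genes that could have been chosen, 1190 (11.6%) had all 24 h libraries above all 48 h libraries, so most such genes missed the 1.5-fold limit.

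Among genes with separated groups, those just inside the fold limit had 24 h and 48 h means of 852 and 568 normalized read counts, and of 216.8 and 144.4. Those just outside had means of 234.0 and 156.0, and of 1083 and 722. At the level limit, the lowest accepted 24 h means were 100.4 and 101.7, and the nearest refused ones were 98.0 and 97.8. A single gene was removed by the tissue limit, with medians 4.88-fold apart and means of 506.7 at 24 h and 174.4 at 48 h. The nearest accepted genes had medians 3.80- and 3.79-fold apart, with means of 187 and 42.8 and of 134 and 23.2. At the fold and level limits, genes on either side had nearly the same value of the limiting measure.

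The falling genes spanned the range of expression from low to very abundant transcripts. The 24 h mean had a median of 473 normalized read counts and lay between 100 and 200 in 90 genes, 200 and 1000 in 206, 1000 and 10000 in 132, and at 10000 or more in 7. These levels are not corrected for transcript length, so they do not rank the genes by transcript number. Together the 435 genes took 6.69% to 7.16% of the reads in the 48 h cortex libraries and 8.18% to 10.5% in the controls. At 24 h their share was 9.24% in replicate 2, 17.3% in replicate 3 and 11.0% in replicate 4.

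Most of that share came from a handful of very abundant genes. The 5 most abundant falling genes alone took 13.2% of the reads of cortex 24 h replicate 3 and 4.66% to 5.28% of those at 48 h. The most abundant of all had 284485, 705048 and 385265 normalized read counts at 24 h and 279196, 214308 and 260111 at 48 h, with controls between 256807 and 325371. Its lowest 24 h library was only just above its highest 48 h library, and the ratio of its 24 h to its 48 h mean was 1.82 with replicate 3 and 1.33 without it. In all 5 the level in replicate 3 was 1.83 to 2.37 times that of the next 24 h library. The other 430 genes also took a larger share in replicate 3, 4.11%, than at 48 h, where they took 1.88% to 2.03%.

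Cortex 24 h replicate 3 was the highest of the 3 libraries at 24 h in 393 of the 435 genes. Replicate 2 was the highest in 31 and replicate 4 in 11. Replicate 3 was also the highest of all 10 cortex libraries in 368 genes, and in 227 it reached at least 1.5 times both other 24 h libraries. Each gene's log2 level, taken against its own median over the 10 cortex libraries, had a median over the 435 genes of 0.18 in 24 h replicate 2, 0.90 in replicate 3 and 0.26 in replicate 4. At 48 h the same measure was -0.38, -0.38 and -0.27. The choice of genes fixed that all 3 libraries at 24 h lay above all 3 at 48 h, and replicate 3 stood far above the rest. The medians over the 10266 genes stayed between -0.07 and 0.02 in every library of both tissues.

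When replicate 3 was left out of the 24 h mean, the ratio to the 48 h mean had a median of 1.47 and 188 of the 435 genes still reached 1.5. Choosing genes afresh without that library gave 324, of which 182 were among the 435. Replicate 3 is the 24 h library with the tissue position of 0.26, and the falling genes leaned slightly towards the hippocampus. In 312 of them (71.7%) the hippocampus median was above the cortex median, against 45.9% of the 10266 genes, although the median difference was only 0.14 on the log2 scale. Genes 4-fold or more apart between the tissues had been left out by the choice. Of the rest, 14 falling genes (3.22%) were at least 2-fold higher in hippocampus, against 2.89% of the 10266. In cortex 5 (1.15%) were at least 2-fold higher, against 5.47%. The part of tissue position in the level of replicate 3 was not tested.

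**Figure D1:**
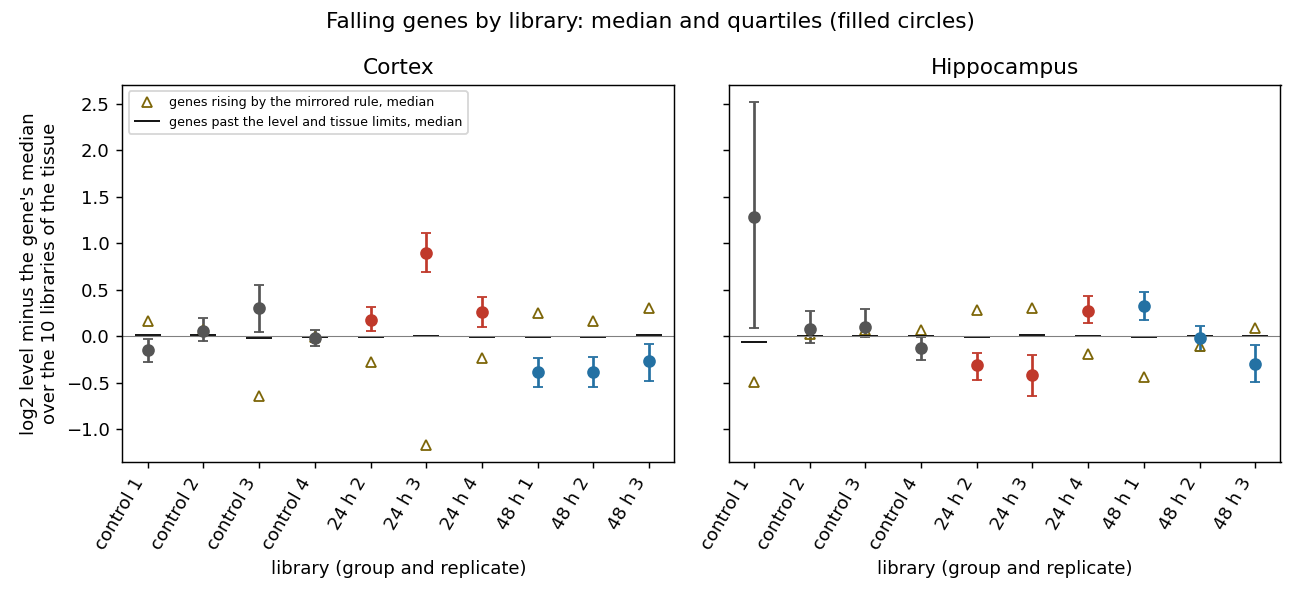
Each filled circle is the median over the 435 falling genes of the log2 level in 1 library minus the gene's median over the 10 libraries of that tissue, with bars to the quartiles, in grey for controls, red for 24 h and blue for 48 h; triangles are 511 genes chosen by the mirrored rule and dashes the 10266 genes that could have been chosen. Cortex 24 h replicate 3 stands at 0.90 and hippocampus control 1 at 1.28, while the dashes stay near 0.

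The control level shows whether a falling gene was raised at 24 h or lowered at 48 h against rats kept at normal oxygen. In the cortex the 4 controls lay mostly between the exposed groups. The control mean fell between the means of the 48 h and 24 h groups in 407 of the 435 genes, below the 48 h mean in 11 and above the 24 h mean in 17. On a scale with the 48 h mean at 0 and the 24 h mean at 1, the control mean had a median of 0.43 with quartiles of 0.29 and 0.58. It was nearer to the 48 h mean in 275 genes and nearer to the 24 h mean in 160. The choice of genes set both ends of this scale, so these places are a description only. Without 24 h replicate 3 the control mean lay between the exposed means in 300 genes. The median place was then 0.71, so the controls lay nearer to the 24 h libraries.

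**Figure D2:**
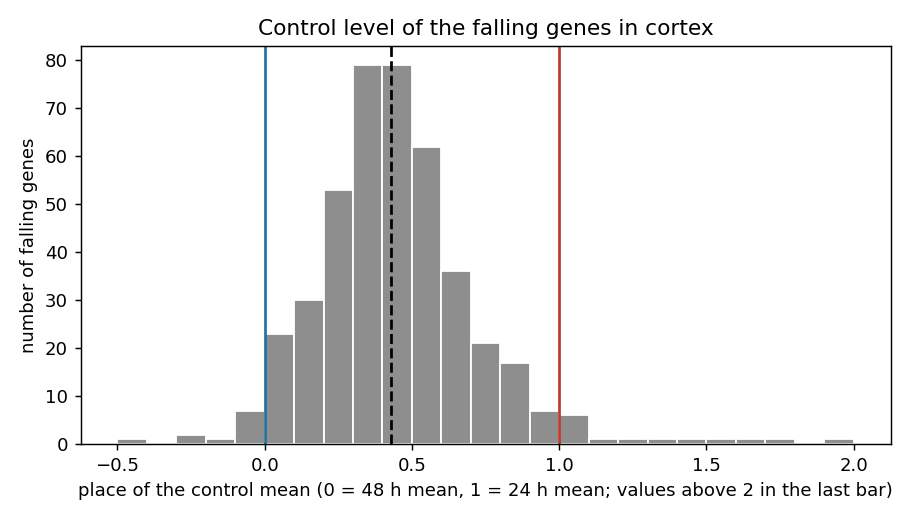
Number of falling genes in cortex, on the vertical axis, by the place of the control mean on the horizontal axis, where 0 (blue line) is the gene's 48 h mean, 1 (red line) its 24 h mean and the dashed line the median of 0.43. For 407 of the 435 genes the control mean lies between the lines, and values above 2 are gathered in the last bar.

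Judged library by library, 84 falling genes had all 24 h libraries above all 4 controls, where 5.12% of the 10266 genes did. All 48 h libraries lay below all controls in 178 falling genes, where 6.53% of the 10266 did. Both held in 15 genes, the first alone in 69, the second alone in 163 and neither in 188. No falling gene lay below all controls at 24 h or above all controls at 48 h. These comparisons share their exposed libraries with the choice of genes, so the shares describe the genes and support nothing. Cortex control 3, whose tissue position was 0.41, was the highest control in 276 genes. Without it the number above all controls at 24 h was 192, and without 24 h replicate 2, the lowest 24 h library in 266 genes, it was 149. Leaving out a library can only keep or raise such a number. The shares of the 10266 genes without these libraries were not taken.

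The model fitted to all genes gives the size of these differences against the controls. At 24 h the log2 difference from control had a median of 0.40 over the falling genes and -0.02 over all 14783 genes tested, and it was above 0 in 422 of the 435, against 47.1% of all genes. At 48 h the median was -0.41, and 420 of the 435 lay below 0, against 49.1% of all genes. The 2 differences were thus about equal in size and opposite in sign. Both comparisons share their exposed libraries with the choice of genes, which favours these signs. The counts and medians describe the genes and support nothing. Without 24 h replicate 3 the median at 24 h was 0.17 and 338 genes were above 0. Leaving out cortex control 3 moved the medians to 0.50 at 24 h and -0.32 at 48 h.

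With limma, the linear model on the log2 scale, no gene passed an adjusted p of 0.05 in any cortex comparison, among the falling genes or elsewhere. Between 48 h and 24 h the falling genes had a median log2 difference of -0.76, with a median standard error of 0.26, and a smallest adjusted p in limma of 0.119. At an unadjusted p under 0.05, 382 of the 435 were lower at 48 h, against 5.82% of all genes. At the same level 125 were above control at 24 h (3.45% of all genes) and 111 below control at 48 h (2.54% of all genes). Single libraries moved these limma counts, taken here in either direction. At 24 h the count was 48 without 24 h replicate 3, 58 without control 1 and 195 without control 3. At 48 h it was 51, 62 and 64 without 48 h replicates 1, 2 and 3, 59 without control 3 and 198 without 24 h replicate 3. Leaving out a library changes the spread that the fit uses for every gene. The shares over all genes in these reduced fits were not taken, so the shifts are not particular to the falling genes by these counts. edgeR also called none at an adjusted p under 0.05, but at an unadjusted p under 0.05 it had 396 falling genes lower at 48 h than at 24 h (6.67% of all genes), 151 above control at 24 h (4.37%) and 109 below control at 48 h (2.79%). DESeq2 called 108 falling genes lower at 48 h than at 24 h (0.567% of all genes), 8 above control at 24 h (0.0938%) and 1 below control at 48 h (0.00893%). The contrast between 24 h and 48 h chose the genes, and the comparisons with control share exposed libraries with that choice. None of these counts is therefore evidence for the genes.

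The hippocampus libraries played no part in the choice on time and cover the same 2 times. With 4 control rats and 3 rats at 48 h for as many libraries in each tissue, they come from the same rats as the cortex libraries there, so they are separate libraries and not separate animals. A fall from 24 h to 48 h was not detected there. The log2 difference between 48 h and 24 h had a median of 0.15 over the falling genes and 0.00 over all 15028 genes tested, and ranged from -3.04 to 1.93. It was above 0 in 372 of the 435, against 51% of all genes, and below 0 in 63, against 49%. No falling gene passed the test in either direction, and the smallest adjusted p in limma was 1. At an unadjusted p under 0.05, limma had 0 higher (0.0599% of all genes) and 1 lower (0.106% of all genes).

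Other count tests gave the same picture in the hippocampus. edgeR called 0 of the 435 at an adjusted p under 0.05 and had 0 at an unadjusted p under 0.05, against 0.118% of all genes higher and 0.255% lower. DESeq2 called 0 and had 1 lower at an unadjusted p under 0.05 (0.372% of all genes). The 24 h and 48 h libraries did not overlap in 4 falling genes with the higher level at 48 h (1.95% of the 10266) and in 1 with the lower (1.34%). In the limma fit the median standard error of the difference was 0.50 on the log2 scale, against 0.26 in the cortex. This error pools the spread of all 3 groups. It thus includes the hippocampus controls, where the SD of the falling genes' log2 level had a median of 0.86. The cortex error comes partly from libraries that chose the genes, so the 2 errors do not compare the precision of the time contrast alone. Whether the tissues differ in this contrast was not tested, since the choice fixed the cortex value.

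**Figure D3:**
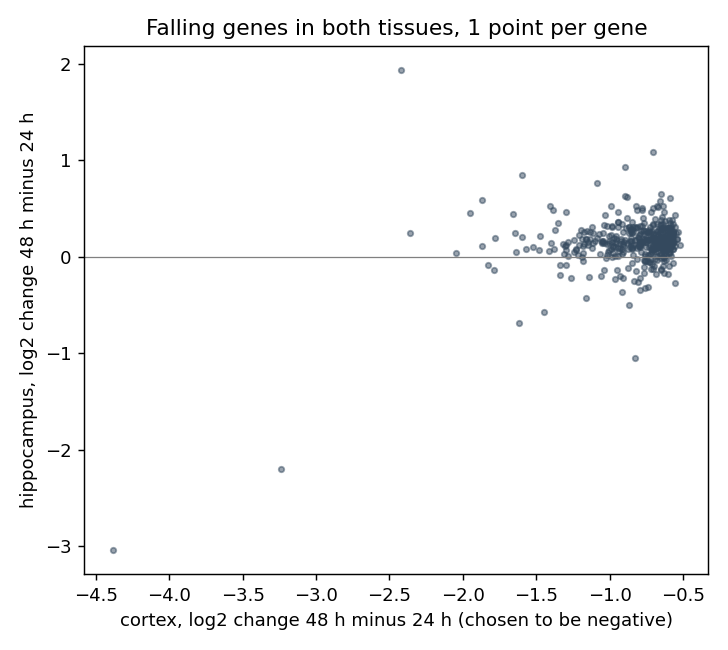
Each point is 1 of the 435 falling genes, with the log2 difference between 48 h and 24 h in cortex on the horizontal axis, negative by choice, and the same difference in hippocampus on the vertical axis. In hippocampus 372 points lie above the line at 0, and the range is -3.04 to 1.93.

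The direction in the hippocampus rested on a few libraries that moved the genes together. At 24 h the median log2 level of the falling genes, against each gene's hippocampus median, was -0.31 in replicate 2, -0.42 in replicate 3 and 0.27 in replicate 4. At 48 h it was 0.33 in replicate 1, -0.02 in replicate 2 and -0.30 in replicate 3. The groups overlapped, with 1 library at each time well above the others. Replicate 4 was the highest 24 h library in 390 of the 435 genes and replicate 1 the highest 48 h library in 327.

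Leaving out 24 h replicate 4 gave 34 falling genes below 0 in place of 63, and leaving out 48 h replicate 3 gave 40. Leaving out 48 h replicate 1 gave 216 below 0 and a median of 0.00, leaving out 24 h replicate 3 gave 194, and leaving out 24 h replicate 2, whose tissue position was 0.46, gave 142. The median stayed between 0.00 and 0.40 under each of these omissions. A fit with the replicate number as a block put 275 below 0, with a median of -0.11.

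Within the hippocampus groups the falling genes were more spread out than most. The SD of their log2 level had a median of 0.44 among the 24 h libraries and 0.37 at 48 h, where the 10266 genes had 0.25 and 0.23. The median of the 10266 was exceeded by 86.4% and 82.8% of the falling genes. In the cortex the SD was 0.28 among controls against 0.25 and 0.17 at 48 h against 0.16. At 24 h it was 0.42 against 0.24, in libraries that served to choose the genes.

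Genes chosen by the mirrored rule, higher at 48 h than at 24 h in cortex, numbered 511. Their opposite direction in the exposed cortex libraries is fixed by that choice, as in 24 h replicate 3, where their median log2 level was -1.17 against 0.90 for the falling genes. In cortex control 3, which the rule did not use, it was -0.64 against 0.31. In hippocampus it was -0.20 in 24 h replicate 4 and -0.44 in 48 h replicate 1, where the falling genes had 0.27 and 0.33. The signs were not opposite in cortex controls 2 and 4, hippocampus controls 2 and 3 and hippocampus 48 h replicate 2. Of the 511 genes, 52 were higher at 48 h than at 24 h in hippocampus, where 51% of all genes tested were. This count comes from the same few hippocampus libraries.

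Against the hippocampus controls the falling genes lay lower at both times. The log2 difference at 24 h had a median of -0.53, with 361 of the 435 below 0 (46.9% of all genes), and at 48 h a median of -0.38, with 343 below 0 (48.3% of all genes). In limma none passed an adjusted p of 0.05. At an unadjusted p under 0.05, limma had 6 lower (0.785% of all genes) and 2 higher (1.34%) at 24 h, and 0 lower (0.699%) and 1 higher (0.905%) at 48 h. At the unadjusted level edgeR had 44 lower at 24 h (2.24%) and 20 lower at 48 h (1.67%), and DESeq2 had 33 (2.47%) and 9 (2.02%). Neither tool called a falling gene at an adjusted p under 0.05.

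Their size depended on hippocampus control 1, the library of 4654096 reads, and at 48 h so did their direction. The falling genes had a median log2 level of 1.28 in it, with quartiles of 0.09 and 2.52, and of 0.08, 0.10 and -0.13 in the other controls. Without it the median difference from control was -0.18 at 24 h, with 356 genes below 0, and -0.01 at 48 h, with 225 below 0 and 210 above. Without all 5 libraries that stand apart in tissue position or depth, the medians were -0.06 and 0.02. The 24 h libraries did not overlap the controls in 8 falling genes with the lower level (1.73% of the 10266) and 2 with the higher (2.07%). At 48 h these numbers were 2 (1.41%) and 1 (1.49%).

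Most genes of each cortex pattern against control lay higher at 48 h than at 24 h in the hippocampus, as did 372 of all 435. Among all genes tested the share was 51%. The classes rest on the same few libraries and do not add to each other. Without hippocampus 48 h replicate 1, 219 of the 435 were higher. Of the 84 genes above all cortex controls at 24 h, 64 were higher at 48 h than at 24 h in hippocampus. The same held for 157 of the 178 genes below all cortex controls at 48 h and for 164 of the 188 in neither class. Grouped by the cortex 24 h library with the highest level, 343 of the 393 genes led by replicate 3, 21 of the 31 led by replicate 2 and 8 of the 11 led by replicate 4 were higher at 48 h in hippocampus. The 31 genes led by replicate 2 were less abundant, with a median 24 h mean of 187 against 515 for those led by replicate 3. Their controls were also more uneven, with a median coefficient of variation of 53.4% against 19.3%.

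Single genes are shown by 4 identifiers, chosen after their values were seen. ENSRNOG00000010079 had the largest cortex ratio, 31.9. Its normalized read counts in cortex were 563, 237 and 19.9 at 24 h, 17.2, 7.49 and 0.992 at 48 h, and 235, 17.9, 191 and 25.9 in the controls. Of the controls, 2 lay close to the middle 24 h library and 2 close to the lowest 24 h and highest 48 h libraries. In hippocampus the counts were 135, 399 and 257 at 24 h and 35.2, 15.4 and 41.4 at 48 h, which did not overlap. Its 4 hippocampus controls were 1062, 12.7, 26.8 and 23.6, with the high value in control 1. The hippocampus log2 difference between 48 h and 24 h was -3.04 with a standard error of 1.36 and an adjusted p of 1 in limma. It was the falling gene that limma placed under an unadjusted p of 0.05 in this contrast.

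ENSRNOG00000027271 was the next most uneven gene across the cortex libraries by the ratio of the highest to the lowest count, with 1 added to each. It had 1358, 2421 and 1505 normalized read counts at 24 h, 432, 10.8 and 1149 at 48 h, and 1190, 1282, 996 and 17.0 in the controls. It was near 0 in control 4 and in 48 h replicate 2 and high in the other 8 cortex libraries. In hippocampus it had 9.08 in control 4 and 16.2 in 48 h replicate 2, and the other 8 libraries lay between 781 and 1648. The low libraries carried the same group and replicate number in both tissues. The hippocampus log2 difference between 48 h and 24 h was -2.20 with a standard error of 1.92 and an adjusted p of 1 in limma, and without 48 h replicate 2 it was -0.29.

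The falling genes with the smallest unadjusted p for a higher level at 48 h in hippocampus were ENSRNOG00000020602 and ENSRNOG00000065893, and neither passed. ENSRNOG00000020602 had 946, 1600 and 1048 normalized read counts at 24 h and 601, 853 and 781 at 48 h in cortex, with controls from 658 to 1361. In hippocampus it had 513, 733 and 1004 at 24 h and 1202, 1233 and 854 at 48 h, and the groups overlapped in 1 library of each. Its hippocampus log2 difference was 0.58 with a standard error of 0.28 and an adjusted p of 1 in limma.

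ENSRNOG00000065893 was a low gene, with 88.7, 87.5 and 158 normalized read counts at 24 h and 67.8, 49.1 and 55.5 at 48 h in cortex. Its cortex controls ranged from 44.0 to 101.4 and overlapped both. In hippocampus it had 51.7, 32.8 and 27.0 at 24 h and 68.1, 67.1 and 71.6 at 48 h, with no overlap, and controls from 29.1 to 114.1. Its hippocampus log2 difference was 0.93 with a standard error of 0.48 and an adjusted p of 1 in limma.

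**Figure D4:**
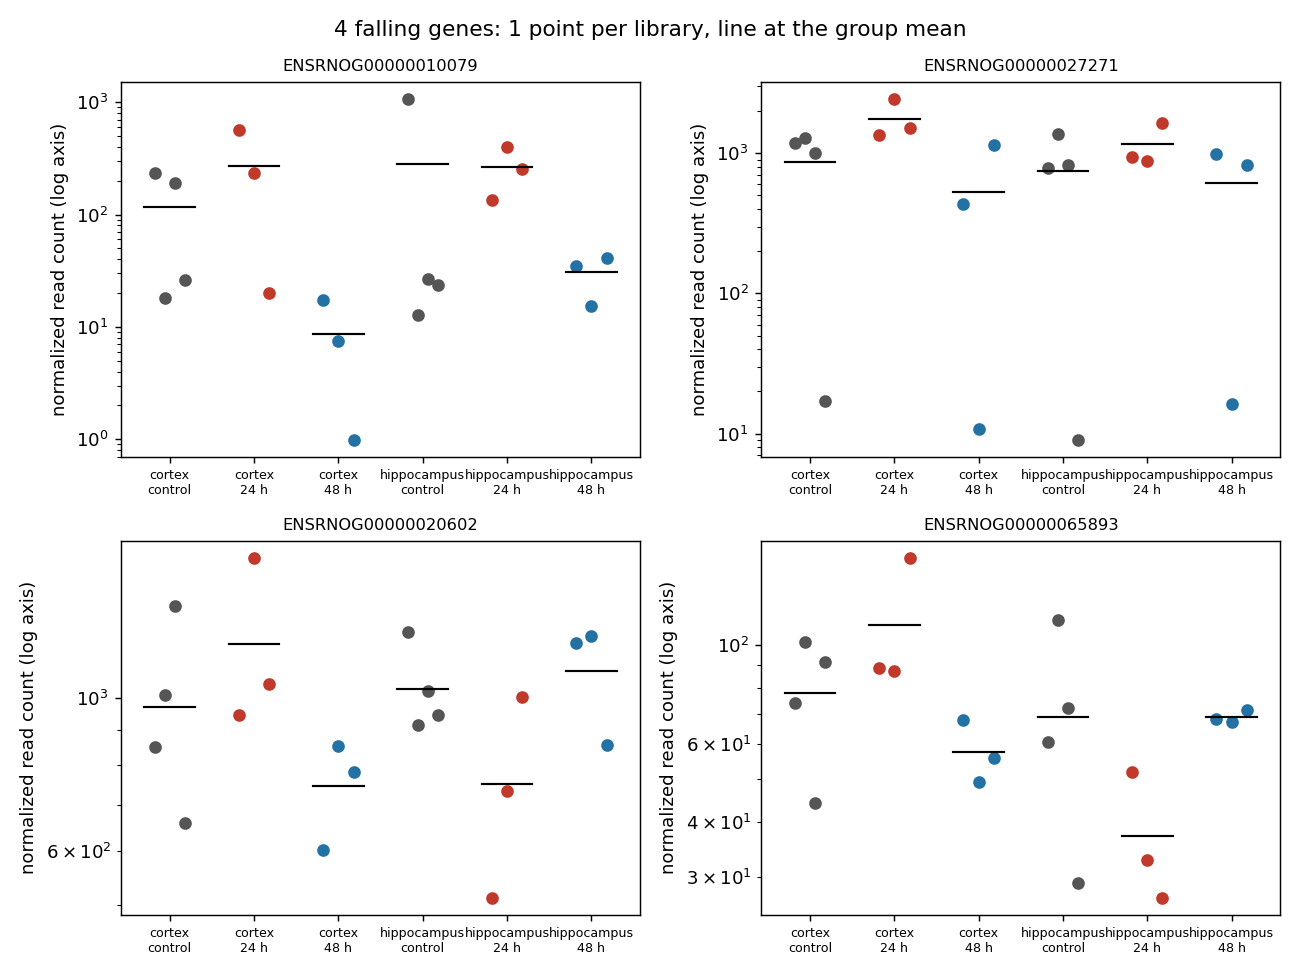
Normalized read counts on log axes for the 4 named genes, 1 point per library and a line at the group mean, by tissue and group (grey for controls, red for 24 h, blue for 48 h). ENSRNOG00000027271 shows a point near 10 in the same 2 groups of both tissues, and the cortex controls of ENSRNOG00000010079 lie between 17.9 and 235.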

How the data were processed

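The deposited table held gene-level values of 21 libraries from rat cortex and hippocampus (signal: read counts that the authors had divided by a size factor per library). Per the submitters' processing notes, fastp 0.20.0, HISAT2 2.1.0 and featureCounts 2.0.1 were used; genome build, annotation and strand were not given in the sources used here. Whole reads were recovered from the steps of the deposited values in every library (100% of values within 0.001 of a whole number), and the factors equal DESeq2's median-of-ratios factors. Replicates differed beyond counting noise, so each library counted as 1 replicate. The labels tie no library to a rat beyond its replicate number, so p-values measure the spread between these libraries.

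The 435 genes and the lists were chosen with earlier results of these data known. Of 6 identifiers the choice leaves out by name, 5 were in the table and none met its other limits. Tests used limma 3.58.1 on log2(value + 1) with a mean-dependent prior, fitted per tissue to the 10 libraries of 3 groups over all genes with a mean of at least 10, with Benjamini-Hochberg adjustment. Fold changes on that scale understate the change of low genes. edgeR 4.0.16 and DESeq2 1.42.0 (R 4.3.3) on the recovered reads were alternatives; over all genes edgeR called 0 in each of the 6 comparisons, and DESeq2 called 145 between 48 h and 24 h in cortex. The methods were tested on simulated data. The planned naming rule (largest ratios, highest levels, smallest p in hippocampus, listed genes, limit neighbours) could be followed only in part, since at most 4 identifiers without symbols are printed; ENSRNOG00000027271 was chosen for its pattern in place of the most abundant gene. The 26 gene and marker lists could not be applied, since 0 of the 47357 reference genes carry an Ensembl identifier.

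The tissue position is the place of a library between the cortex and hippocampus medians. The 3 groups hold different rats. Deviations of libraries with the same number correlated at -0.24 to 0.24 in cortex and at -0.49 to 0.35 in hippocampus. Over the 3 pairs of hippocampus controls and 24 h libraries all correlations passed 0.1 (0.32, 0.19 and 0.12), and a fit with the number as a block is given for that comparison.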

Additional observations from a re-analysis of the deposited data

Results flagged for a closer look

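In hippocampus control 1 the median log2 level of the falling genes against their hippocampus median was 1.28, and its gap to the other 3 controls took up most of the range of the group. In the same library ENSRNOG00000010079 had 1062 normalized read counts against 12.7 to 26.8 in the other hippocampus controls. This library had 4654096 reads, the fewest of all. The 2 control groups were examined for such a gap on 6 measures each, 12 in all, and these 2 gaps lie in the same library. Chance gives a gap of this size in about 1 in 20 for each measure if its values are normally distributed. That was not checked, and the counts of genes named for their uneven values need not be.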

How the results depend on the processing

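A fold limit of 1.3 gave 775 falling genes and one of 2 gave 117. Leaving out 1 exposed cortex library gave 324 to 629. Of the 117 genes, 18 were lower at 48 h than at 24 h in hippocampus, 113 had the control mean between the exposed means, 19 lay above all controls at 24 h and 69 below all controls at 48 h. With 1 library left out, the number lower in hippocampus was 34 to 216, the number with controls between 300 to 412, the number above all controls at 24 h 84 to 192, and the number below all controls at 48 h 178 to 253. The median hippocampus difference was then 0.00 to 0.40 and the control place 0.31 to 0.71.

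DESeq2 called 108 falling genes between 48 h and 24 h in cortex, 8 at 24 h against control and 1 at 48 h against control, where limma called 0. An alternative chosen after seeing the data left out cortex control 3, cortex 24 h replicate 3, hippocampus controls 1 and 2 and hippocampus 24 h replicate 2. It gave 322 genes, 181 of them among the 435, and for the 435 it gave 4 limma calls between 48 h and 24 h in cortex. There 195 lay above all controls at 24 h, a number that fewer libraries can only keep or raise, and 142 were lower at 48 h in hippocampus. The other limma comparisons called 0 falling genes with any 1 library left out, and the cause of these shifts was not tested.

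With the replicate block, 275 falling genes were lower at 48 h than at 24 h in hippocampus, with a median of -0.11, and limma called 0. The 24 h and 48 h groups shared 2 replicate numbers there, and the deviations of these pairs correlated at -0.49 for replicate 2 and 0.35 for replicate 3. For hippocampus 24 h against control, where all correlations passed 0.1, the blocked median was -0.31 and limma called 0. The block changed no call. Hippocampus control 1, the shallowest library, weighs as much as any other library in limma. With it, 26.4% of the falling genes differed at least 10-fold between their highest and lowest hippocampus libraries, and without it 3.68%. Over all genes that could have been chosen, these shares were 6.97% with it and 1.69% without it. The drop was thus not confined to the falling genes, although their share was higher in both cases. The part of depth in the levels of hippocampus control 1 was not tested. Having 3 or 4 libraries a group limits every comparison.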
